A study of Mus musculus with 6 samples.

Results

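The orphan and adhesion G protein-coupled receptors (GPCRs) of mouse microglia were taken as the genes whose symbols are Gpr followed by a number, with or without 1 letter, or Adgr followed by a letter and a number. Gpr34 and Gpr84 were left out. The count table listed 41079 genes, and 98 of them met the rule, 27 adhesion receptors and 71 Gpr genes. Of these, 36 were measured, 12 adhesion receptors and 24 Gpr genes, and 62 had too few counts for a test and are reported as not measured.

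RNA was sequenced from 6 libraries of primary microglia of C57Bl/6N mice aged 1 to 3 days. The cells came from pooled neonatal brains, were grown in flasks that received 20% L-929 conditioned medium, a source of macrophage colony-stimulating factor, and were collected by shaking; all 6 libraries share these steps. The study's methods give serum-containing medium in the flasks, shaking weeks after isolation, and a brief serum exposure in the wells while cells adhered. The 3 control cultures were then kept in serum-free DMEM/F12. The labels give the 3 optimized cultures human TGFbeta, human IL34 and CX3CL1 at 100 ng/mL each, and the study's methods add cholesterol, insulin-transferrin-selenium and a collagen IV coating, so the parts of the mixture cannot be told apart. The library totals were 20628148 to 27261839 counts. The length of the culture before RNA extraction is not given in the sources used here, and uncultured microglia are not analysed here.

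GPCRs cross the membrane in 7 helices and pass a signal from outside the cell to G proteins inside it. Those named Gpr were mostly found by sequence before a ligand was known, and some of them still have none. Adhesion GPCRs carry a long extracellular part that binds matrix proteins or neighbouring cells, and this part is cut from the membrane part in many members but stays attached. In microglia and other macrophages, GPCRs sense nucleotides, lipids, protons and matrix, and the adhesion receptor Adgre1 (F4/80) is a classical macrophage marker.

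The sequences just upstream of the start site are shown for the 2 receptors with the largest rise and the 2 with the largest fall among those given in full below whose window held no annotated exon. Each is the 250 bases before the start of the canonical GENCODE M39 transcript on GRCm39, read 5′ to 3′ on the gene's strand. Capitals mark the SMAD motif CAGAC or its reverse complement GTCTG, shown because TGF-β, one of the agents added, signals through SMAD proteins. The windows are chr8:95710408-95710657 on the plus strand for Adgrg1, chr4:150171572-150171821 on the plus strand for Gpr157, chr17:56056734-56056983 on the plus strand for Adgre4 and chr6:124841129-124841378 on the minus strand for Gpr162.
Adgrg1: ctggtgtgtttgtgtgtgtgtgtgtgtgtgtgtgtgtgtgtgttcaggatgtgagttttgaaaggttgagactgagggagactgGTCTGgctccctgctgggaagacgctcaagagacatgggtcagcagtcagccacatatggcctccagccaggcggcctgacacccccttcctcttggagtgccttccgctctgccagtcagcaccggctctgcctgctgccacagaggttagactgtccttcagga
Gpr157: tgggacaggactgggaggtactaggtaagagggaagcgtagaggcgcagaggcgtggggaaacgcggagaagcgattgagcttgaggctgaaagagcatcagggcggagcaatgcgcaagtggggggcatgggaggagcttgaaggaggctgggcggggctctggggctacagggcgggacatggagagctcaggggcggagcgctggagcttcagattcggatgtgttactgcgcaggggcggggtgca
Adgre4: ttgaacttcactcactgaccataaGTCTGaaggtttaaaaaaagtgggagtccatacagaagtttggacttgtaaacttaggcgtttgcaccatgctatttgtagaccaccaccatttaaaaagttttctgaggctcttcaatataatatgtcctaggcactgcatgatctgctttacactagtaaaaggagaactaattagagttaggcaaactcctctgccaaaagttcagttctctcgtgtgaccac
Gpr162: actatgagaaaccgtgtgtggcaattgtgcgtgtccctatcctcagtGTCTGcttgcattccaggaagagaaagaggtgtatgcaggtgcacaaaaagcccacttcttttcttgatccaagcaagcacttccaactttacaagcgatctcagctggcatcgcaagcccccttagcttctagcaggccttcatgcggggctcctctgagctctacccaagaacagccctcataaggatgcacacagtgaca
Among the 4 printed windows the motif occurred with both directions of change, and so few windows cannot decide whether it goes with either. It was present once each upstream of Adgrg1, which rose, and of Adgre4 and Gpr162, which fell, and was not found upstream of Gpr157, which rose. Of 20979 windows of the same length before all protein-coding genes, 41.3% held it on either strand. Over the 10 receptors given in full it was found in 5 windows. The PU.1 core GAGGAAGT, present in 2.06% of all windows, was found in 1, that of Gpr31b, and the TATA box TATAAA, in 11.7% of all windows, in 1, that of Gpr65. The AP-1 motif TGANTCA (6.17% of all windows) and the CRE motif TGACGTCA (1.72%) were found in none. Both strands were searched, no motif is contained in another, and a match describes letters only. Which start site these cells use was not tested. The Gpr157 window was the richest of the 4 printed in CG dinucleotides, with 15 against a median of 8 over all windows, and Adgre4 had the fewest, with 2.

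The 6 libraries were checked first. Chi-square values per degree of freedom between control libraries were 10.6 to 25.8, and none was a copy of another. Between optimized libraries 2 and 3 this value was 14.4, while optimized library 1 gave 78.5 and 45.9 against them and stood apart. Optimized library 1 also held 111 counts of Sftpd, 37 of Rgs5 and 21 of Emcn, which had 0 or 1 count in each of the other 5 libraries; these genes were looked up after the counts had been seen. Without optimized library 1, the same 15 receptors that are named as changed below kept their calls. Summed microglia markers stood at 6596 to 6696 CPM (counts scaled to a common library size with TMM factors) in the control and 13053 to 15512 CPM in the optimized libraries, with 8 of 10 genes higher and Aif1 and Csf1r lower. Summed astrocyte markers were at 34.8 to 37.4 CPM in the control and 23.5 to 27 CPM in the optimized libraries, where 1 of 7 genes, Aldh1l1, was lower. Neuron markers were at 4.91 to 7.11 CPM over all libraries. Of the 6 genes 4 were measured, and none of these was called. Of 5 neutrophil markers, S100a8 and Mmp8 were higher, S100a9 and Ly6g were at 0 in every library, and the sum was 201 to 225 CPM in the control and 203 to 236 CPM in the optimized libraries. In bulk RNA, fewer cells of a type and less RNA per cell cannot be told apart.

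Across the measured receptors, 15 of 36 passed edgeR's quasi-likelihood test at an adjusted p under 0.05. That is 41.7%, where 29.8% of the 14618 genes tested passed. Of the 15, 6 were higher and 9 lower in the optimized cultures, while among all genes 14.7% were higher and 15.2% lower. The called receptors were 4 of 12 adhesion receptors, 2 in each direction, and 11 of 24 Gpr genes, 4 higher and 7 lower. The median log2 fold change was 0.08 over the measured receptors and 0.01 over all genes. Scaling by library size alone left 6 higher and 10 lower, while it moved the share of higher genes among all called genes from 49.1% to 32.3%.

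The filter on low counts touches these numbers. It was passed in every library by 28 of the 36 receptors, through the control libraries alone by Adgre4, Gpr85, Gpr18 and Gpr132, through the optimized libraries alone by Gpr137c, Adgrb1 and Gpr153, and by some libraries of each group for Gpr37. A receptor that passed through 1 group alone was tested because it was high there, and Adgre4, Gpr85, Gpr132 and Gpr153 are such receptors among the 15 called. In all 15 called receptors the 3 control and the 3 optimized libraries did not overlap, and this held for 23 of the 36 measured receptors, where 43.9% of all genes tested did not overlap.

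**Figure D1:**
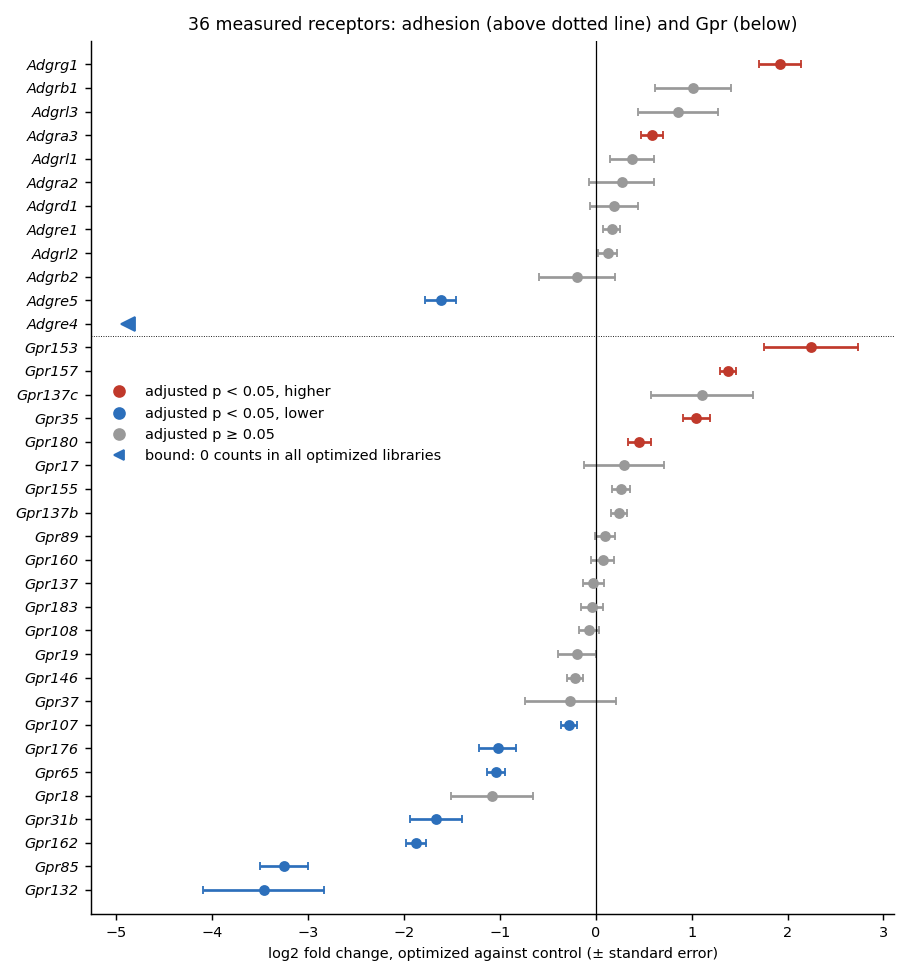
Log2 fold change of the 36 measured receptors, optimized against control, on the x axis, with its standard error as the bar and 1 receptor a row. Adhesion receptors stand above the dotted line and Gpr genes below it; red and blue points passed the test, grey ones did not, and the arrow for Adgre4 is a bound, with 0 counts in the 3 optimized libraries.

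Among adhesion receptors, Adgrg1 rose most. Adgrg1 (GPR56, chr8:95701315-95742028), a receptor for collagen III and transglutaminase 2 that microglia of the intact brain express, was at 1.57, 2.69 and 1.90 CPM in control libraries 1 to 3 and at 7.62, 8.98 and 6.82 CPM in optimized libraries 1 to 3. Every optimized library stood above every control library. The mean went from 2.06 ± 0.57 to 7.81 ± 1.09 CPM (SD, n = 3 libraries each), a log2 fold change of 1.92 (SE 0.22, edgeR adjusted p = 1.1e-04), or 3.79-fold. Its exons share 155 bases with Gm51544 on the opposite strand, a gene with 9 to 43 counts that moved alike (log2 fold change 1.92). The strand setting of the counting is not stated, so reads within the shared bases cannot be told apart. How many reads lie there was not tested. Of the other members of subfamily G, Adgrg2, Adgrg3, Adgrg4, Adgrg5, Adgrg6 and Adgrg7 were not measured, with 17 counts at most in any library.

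Subfamily E, the adhesion receptors of myeloid cells, divided. Adgre1 (F4/80) was at 764, 792 and 778 CPM in the control and 810, 885 and 924 CPM in the optimized libraries. Its optimized libraries were the higher ones, but the difference of 0.17 on the log2 scale (SE 0.09) did not pass the test (edgeR adjusted p = 0.21). Adgre1 alone held 41.8% to 47.3% of all counts on the 98 genes.

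Adgre4, a mouse macrophage and dendritic cell receptor of the same subfamily (chr17:56056984-56175274), was counted 86, 108 and 110 times in the control cultures and 0 times in each of the 3 optimized ones. The control mean was 4.06 CPM, and against a floor of 3 counts per optimized library the level was at least 29.4-fold lower (edgeR adjusted p = 1.0e-05). Its exons share 122 bases with Zfp119a, which was not called (log2 fold change -0.11).

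Adgre5 (CD97, chr8:84446992-84467955), which binds CD55 and CD90 on other cells, was at 9.62, 8.36 and 11.1 CPM in the control and 3.13, 2.90 and 3.48 CPM in the optimized libraries. The groups lay far apart, with means of 9.70 ± 1.39 and 3.17 ± 0.30 CPM (SD, n = 3), 3.07-fold lower under the optimized conditions (log2 fold change -1.62, SE 0.16, edgeR adjusted p = 5.3e-05). It shares 3198 exon bases with Ddx39a on the opposite strand, whose own log2 fold change was -0.03. Ddx39a had a mean of 1048 counts a library against 155.8 for Adgre5. The strand setting of the counting is not stated, so reads within the shared bases cannot be told apart. The microRNA gene Mir1668, which shares 31 bases with Adgre5 on the same strand, fell with it (log2 fold change -1.54).

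The remaining adhesion receptors changed less or held few counts. Adgra3 (GPR125) had 246, 219 and 283 counts in the control and 304, 366 and 312 in the optimized libraries, a log2 fold change of 0.59 (SE 0.12, edgeR adjusted p = 0.0036). The other measured member of subfamily A, Adgra2 (GPR124), a co-receptor for Wnt signals best known from brain endothelium, was not called (0.27, edgeR adjusted p = 0.61). Of 7 endothelial markers 4 were measured, and Flt1 alone was higher. Their sum was 81.5 to 97.1 CPM in the control and 274 to 353 CPM in the optimized libraries, and Cldn5 had at most 2 counts in any library. The latrophilins, which bind teneurins and FLRT proteins at synapses, gave log2 fold changes of 0.38 for Adgrl1, 0.13 for Adgrl2 and 0.86 for Adgrl3, and none was called (edgeR adjusted p = 0.25, 0.39 and 0.16). Adgrl3 rested on 10 to 28 counts a library. Adgrb1 (BAI1), which recognises phosphatidylserine on dying cells, had 9, 7 and 15 counts in the control and 15, 25 and 15 in the optimized libraries, and its difference of 1.01 (SE 0.40) did not pass the test (edgeR adjusted p = 0.085). Adgrb2 (-0.19) and Adgrd1 (0.19) were not called either. No member of subfamily F or V was measured, and Celsr2 and Celsr3, adhesion GPCRs named under another scheme, were measured and not called (0.31 and 0.62), while Celsr1 was not measured.

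**Figure D2:**
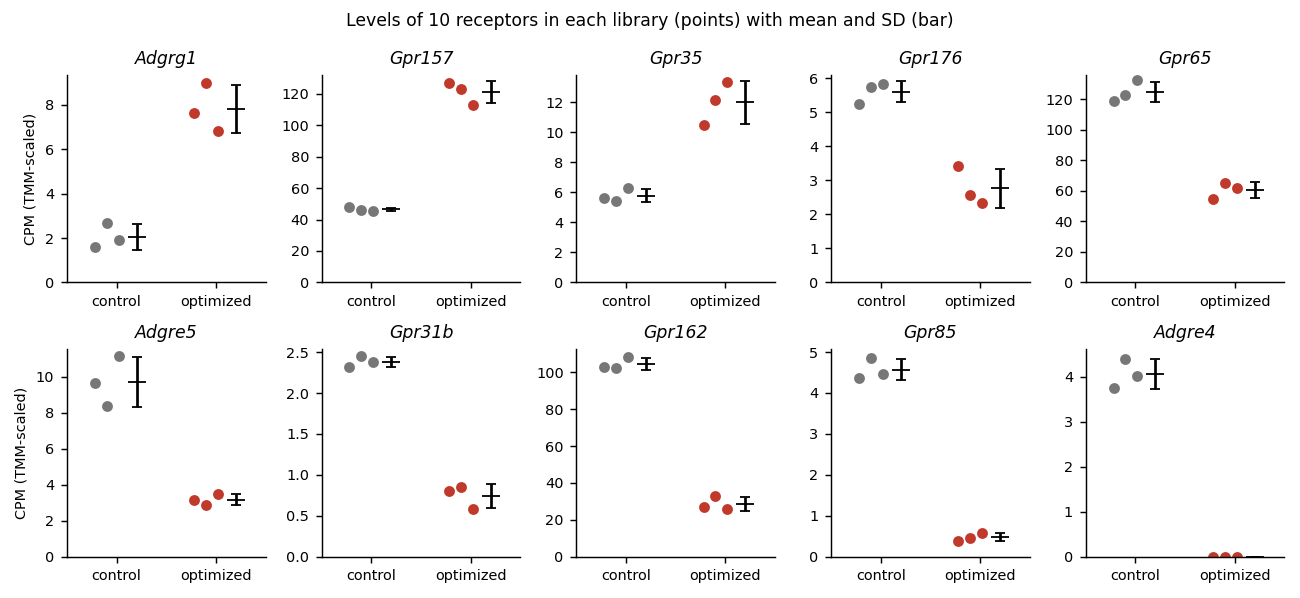
CPM of the 10 receptors given in full, 1 panel a gene, each with its own y axis from 0. Points are the 3 control (grey) and 3 optimized (red) libraries and the bar is their mean ± SD; the groups do not overlap in any panel.

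The measured proton-sensing receptors both fell. Gpr65 (TDAG8, chr12:98234886-98242980), which raises cAMP when the medium turns acid, was at 119, 123 and 132 CPM in the control and 54.8, 65.1 and 61.9 CPM in the optimized libraries. The lowest control library was well above the highest optimized one, and the mean fell from 125 ± 6.76 to 60.6 ± 5.28 CPM (SD, n = 3), 2.06-fold lower (log2 fold change -1.04, SE 0.09, edgeR adjusted p = 2.1e-05). Gpr132, which also responds to oxidised lipids and lactate, had 17, 21 and 30 counts in the control and 2, 0 and 3 in the optimized libraries (log2 fold change -3.46, SE 0.63, edgeR adjusted p = 0.0021). Gpr4 was not measured, with 3, 5 and 7 counts in the control and 14, 11 and 16 in the optimized libraries, too few for a test.

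The receptors for lipids and metabolites moved in both directions. Gpr35 (chr1:92878587-92914113), for which the tryptophan metabolite kynurenic acid is a proposed ligand, was at 5.64, 5.42 and 6.26 CPM in the control and 10.5, 12.1 and 13.4 CPM in the optimized libraries. Its mean rose from 5.77 ± 0.43 to 12 ± 1.45 CPM (SD, n = 3), 2.07-fold (log2 fold change 1.05, SE 0.14, edgeR adjusted p = 3.0e-04). It shares 117 exon bases with Capn10 on the same strand, which was not called (-0.05).

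Gpr31b (chr17:13269901-13271183, 1 exon), counterpart of a human receptor for the lipoxygenase product HETE, went the other way. It was at 2.32, 2.45 and 2.38 CPM in the control and 0.80, 0.85 and 0.58 CPM in the optimized libraries. The means were 2.38 ± 0.07 and 0.75 ± 0.14 CPM (SD, n = 3), 3.17-fold lower (log2 fold change -1.66, SE 0.27, edgeR adjusted p = 0.0011).

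Gpr183 (EBI2), the receptor for oxysterols that guides immune cell migration, was at 28.2, 28.6 and 33.4 CPM in the control and 26.9, 32.6 and 28.2 CPM in the optimized libraries, and the groups overlapped (log2 fold change -0.04, SE 0.11, edgeR adjusted p = 0.84). The enzyme that makes the first step of its ligand from cholesterol, Ch25h, was at 33.6, 32.1 and 39.7 CPM in the control and 207, 241 and 259 CPM in the optimized libraries (log2 fold change 2.74, SE 0.12, edgeR adjusted p = 2.3e-07). The second enzyme, Cyp7b1, was not measured, with 8 counts at most in any library, and Hsd3b7, which breaks the ligand down, was not called (0.26, edgeR adjusted p = 0.090).

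Gpr18, a receptor with proposed lipid ligands, had 17, 13 and 19 against 4, 7 and 9 counts and did not pass the test (log2 fold change -1.08, SE 0.43, edgeR adjusted p = 0.088). Gpr55, a receptor for lysophosphatidylinositol, was not measured under the filter, with 9, 5 and 17 counts in the control and 1, 0 and 0 in the optimized libraries. It was called once the filter was dropped (edgeR adjusted p = 0.0084). Of the constitutively active receptors Gpr3, Gpr6 and Gpr12, which raise cAMP without a known ligand, none was measured.

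Among the orphan receptors outside these groups, Gpr157 and Gpr153 rose and Gpr162, Gpr176 and Gpr85 fell. Gpr157 (chr4:150171822-150190457), a receptor studied in the primary cilia of neural progenitors, was at 47.7, 46.3 and 45.5 CPM in the control and 127, 123 and 113 CPM in the optimized libraries. Every optimized library was above every control library, and the mean went from 46.5 ± 1.13 to 121 ± 7.13 CPM (SD, n = 3), 2.60-fold (log2 fold change 1.38, SE 0.08, edgeR adjusted p = 1.6e-06). No listed gene shares an exon with it. Gpr153, an orphan of low level, had 3, 7 and 4 counts in the control and 13, 19 and 27 in the optimized libraries (log2 fold change 2.24, SE 0.49, edgeR adjusted p = 0.0064).

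Gpr162 (chr6:124835145-124841128), an orphan expressed in brain, was at 103, 102 and 108 CPM in the control and 27, 32.7 and 25.9 CPM in the optimized libraries. The mean fell from 104 ± 3.48 to 28.5 ± 3.66 CPM (SD, n = 3), 3.66-fold lower (log2 fold change -1.87, SE 0.10, edgeR adjusted p = 1.0e-06). Its partner on the opposite strand, Gm32404, shares 309 exon bases and fell alike, with 1519, 1600 and 1891 against 373, 518 and 341 counts (-1.84). Reads within the shared bases cannot be told apart, and how many lie there was not tested.

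Gpr176 (chr2:118107575-118204515), known from the circadian pacemaker of the hypothalamus, was at 5.25, 5.75 and 5.82 CPM in the control and 3.41, 2.55 and 2.32 CPM in the optimized libraries. This was 2.03-fold lower (log2 fold change -1.02, SE 0.19, edgeR adjusted p = 0.0026). Gpr85 (SREB2, chr6:13832250-13839990), a highly conserved orphan of the brain, had 100, 119 and 122 counts in the control and 8, 11 and 12 in the optimized libraries. Its mean went from 4.56 ± 0.26 to 0.48 ± 0.10 CPM (SD, n = 3), 9.51-fold lower (log2 fold change -3.25, SE 0.25, edgeR adjusted p = 7.5e-06). It shares 854 exon bases with the opposite-strand gene 1110019D14Rik, which was not called (-0.31, edgeR adjusted p = 0.31).

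The 5 other measured orphans of this group did not pass the test. Their log2 fold changes were -0.21 for Gpr146, 0.07 for Gpr160, 0.29 for Gpr17, -0.19 for Gpr19 and -0.26 for Gpr37. Gpr17 and Gpr37 are known from the oligodendrocyte lineage, and both had at most 32 counts in any library. Summed oligodendrocyte markers were 196 to 217 CPM in the control and 203 to 244 CPM in the optimized libraries, with 1 of 6 genes higher and 1 lower. The summed precursor markers were at 39.1 to 50.8 CPM in the control and 452 to 632 CPM in the optimized libraries; of the 5 genes Cspg4 alone was called, and Pdgfra, Sox10, Olig1 and Olig2 were not called. The part of these markers in any receptor's value was not tested.

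The Gpr genes grouped here as multi-span proteins of the Golgi, endosome and lysosome were called at a share near that of all genes. Where each of these proteins acts was not tested. Of 8 measured, 2 were called (25%, against 29.8% of all genes), both with changes under 0.5 on the log2 scale. Gpr180 rose by 0.46 (SE 0.12, edgeR adjusted p = 0.015) and Gpr107 fell by 0.28 (SE 0.08, edgeR adjusted p = 0.032); each call was lost when certain single libraries were left out. Without control library 1 the edgeR adjusted p was 0.068 for Gpr180 and 0.12 for Gpr107. Gpr137b, a regulator of lysosomal mTORC1 signalling, was at 336, 331 and 326 CPM in the control and 413, 397 and 368 CPM in the optimized libraries. All 3 optimized libraries were higher, and the difference of 0.25 (SE 0.08) lay at the threshold (edgeR adjusted p = 0.051); its near-identical copy Gpr137b-ps (0.15) may share its reads. The remaining members gave -0.07 for Gpr108, -0.02 for Gpr137, 1.11 for Gpr137c on 3 to 34 counts, 0.26 for Gpr155, a lysosomal cholesterol sensor, and 0.10 for Gpr89, and none was called.

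**Figure D3:**
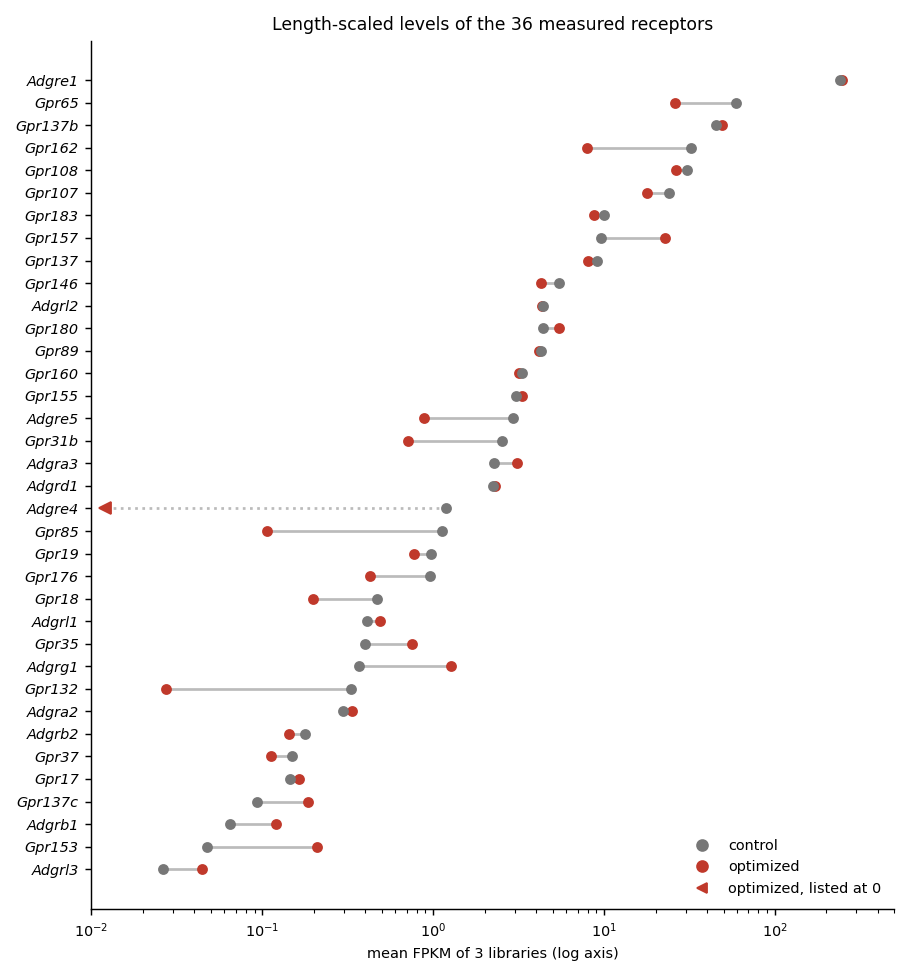
Mean FPKM of 3 libraries on a log x axis for the 36 measured receptors, control in grey and optimized in red, ordered by the control mean, with 1 receptor a row. Adgre1 leads in both groups at 241 and 245 FPKM, Gpr65 and Gpr162 moved down the order and Gpr157 up, and the arrow marks Adgre4, listed at 0 in the optimized libraries.

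Levels were compared between genes on the FPKM scale, which divides by gene length. Adgre1 led in both groups, at 241 ± 10.1 FPKM in the control and 245 ± 15.7 FPKM in the optimized libraries (SD, n = 3). In the control libraries Gpr65 (59.0 ± 1.36), Gpr137b (45.2 ± 2.20), Gpr162 (32.1 ± 0.13) and Gpr108 (30.6 ± 1.87 FPKM) followed, and the last pair differed by less than the SD of Gpr108. In the optimized libraries Gpr137b (48.7 ± 3.68) took rank 2, followed by Gpr108 (26.4 ± 2.39), Gpr65 (26.0 ± 1.44) and Gpr157 (22.6 ± 1.66 FPKM). Gpr108 and Gpr65 differed by less than the SD of either, and Gpr162 had moved from rank 4 to rank 9. The 98 genes together took 0.176% to 0.197% of all counts in every library.

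The 62 receptors that were not measured were 15 adhesion receptors and 47 Gpr genes. Of these, 19 had 0 counts in all 6 libraries, 31 had at most 9 counts in any library, and 12 reached 10 counts in at least 1 library. Among those 12 were Adgra1, Adgrb3, Adgrg3, Adgrg6, Adgrg7, Adgrv1, Gpr158, Gpr161, Gpr39, Gpr4 and Gpr55. Gpr158 had 5, 11 and 4 counts in the control and 1, 1 and 2 in the optimized libraries. Adgrg3 had 3, 5 and 2 against 8, 17 and 6 counts. Adgrg7 (10 counts) and Gpr39 (11 counts) reached 10 in optimized library 1 alone, the library that stood apart, with at most 3 in every other. Of all receptors that were not measured, Gpr55 alone was called by edgeR without the filter.

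The genes that carry or end the receptors' signals were examined as 5 lists, of which 27 of 49 measured genes passed the test (55.1%), 17 higher and 10 lower. Among all genes tested 29.8% passed, 14.7% higher and 15.2% lower. With the Celsr receptors, the ligands of adhesion receptors and the enzymes of the Gpr183 ligand added, it was 30 of 64 (46.9%). Of 12 measured G protein alpha subunits, 5 rose (41.7% called, against 29.8% of all genes) and none fell, with a median of 0.39. Gna15, an alpha subunit of blood cells that activates phospholipase C, rose most (1.38, SE 0.11, edgeR adjusted p = 7.6e-06), and Gnas, the subunit that stimulates adenylyl cyclase, rose by 0.71. Gnao1 (0.73), Gna12 (0.56) and Gna13 (0.43) were the others, while Gnai2, the most counted inhibitory subunit, was not called (-0.06). Of 13 beta and gamma subunits, 5 rose and 2 fell, from Gng11 at 2.26 to Gng4 at -1.44.

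Receptor kinases and arrestins, which switch GPCRs off and carry them into the cell, fell in 5 of 7 and rose in none, with a median of -0.32, where 15.2% of all genes tested were lower. Arrb1, beta-arrestin 1, was at 132, 115 and 109 CPM in the control and 75.6, 56.0 and 58.7 CPM in the optimized libraries (log2 fold change -0.90, SE 0.13, edgeR adjusted p = 4.5e-04). Grk3 fell by 0.91, Grk5 by 0.42, Arrb2 by 0.32 and Grk2 by 0.31 on the log2 scale. The RGS proteins, which speed the return of alpha subunits to the resting state, changed in both directions, with 5 of 12 measured higher and 3 lower. Rgs16 was at 1.79, 1.51 and 2.56 CPM in the control and 15.9, 22.1 and 20.9 CPM in the optimized libraries (log2 fold change 3.32, SE 0.21, edgeR adjusted p = 2.2e-06). Rgs18 was the lowest, at -1.64. Of 5 measured adenylyl cyclases, which make cAMP, Adcy3 (1.33, edgeR adjusted p = 1.3e-06) and Adcy7 (0.53) rose.

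Of the 20 listed ligands of adhesion receptors 11 were measured, and 1 was higher and 1 lower (18.2% called, against 29.8% of all genes). Prnp, the prion protein that binds Adgrg6, rose by 0.81, and Flrt2, a latrophilin ligand, fell by 0.49 on the log2 scale. The ligands of Adgrg1 were not called. Tgm2 gave -0.23, and Col3a1 had 303, 363 and 573 counts in the control against 252, 211 and 1488 in the optimized libraries. The ligands of Adgre5 were not called either, with 16, 10 and 16 against 84, 4 and 6 counts for Cd55 and a log2 fold change of 1.21 for Thy1. The high Cd55 value was in optimized library 1 and the high Col3a1 value in optimized library 3, and the summed fibroblast markers, of which Col3a1 is one, ranged from 31.8 to 45.7 CPM in the control and from 28.6 to 147 CPM in the optimized libraries.

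**Figure D4:**
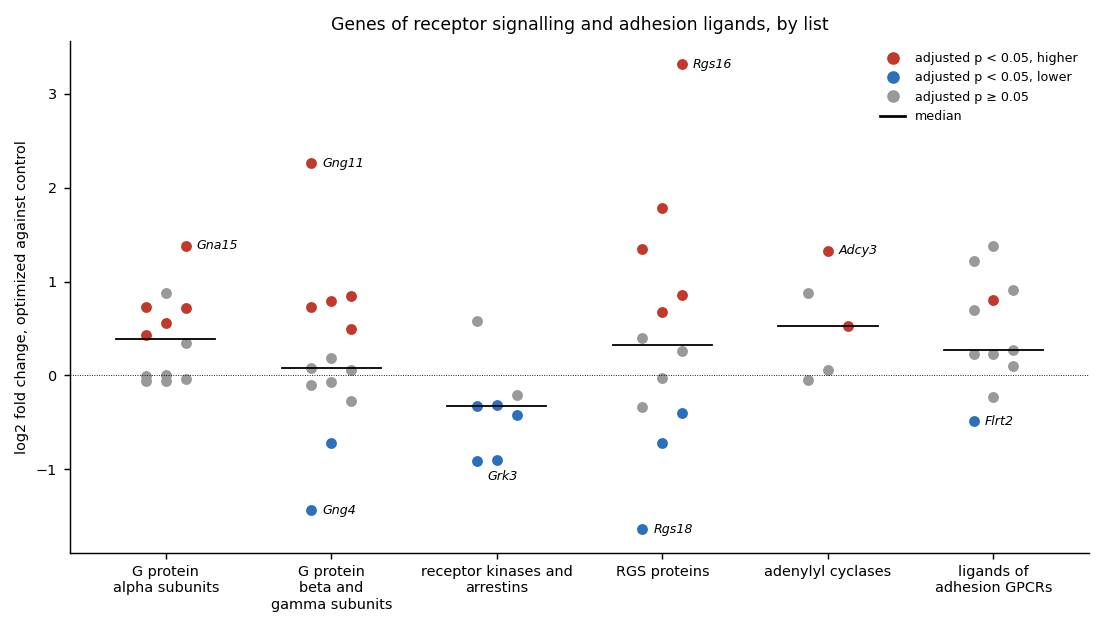
Log2 fold change (y axis) of the measured genes on 5 lists of receptor signalling and 1 of adhesion receptor ligands, optimized against control. Each point is a gene, red and blue where it passed the test and grey where it did not, and the black line is the list's median, which is above 0 for alpha subunits and below 0 for kinases and arrestins.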

How the data were processed

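Raw counts and FPKM values per gene were deposited by the authors, who aligned read pairs with HISAT2 to mm39, the GRCm39 assembly, and assigned them to genes with featureCounts in Galaxy. Versions, annotation, strand setting and the handling of shared reads are not given in the sources used here. Groups and replicate numbers came from the labels. The study calls the libraries biological replicates; p-values measure the spread between them.

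The raw counts went into edgeR 4.0.16 (R 4.3.3): filterByExpr (minimum count 10), TMM factors, and the quasi-likelihood test with condition as the sole term. P-values were adjusted over all 14618 genes tested by the Benjamini-Hochberg method, with a threshold of 0.05. CPM are TMM-scaled. The common dispersion of 0.0164 is a coefficient of variation of 0.128. FPKM were used as deposited, for levels between genes. Alternatives were DESeq2 1.42.0, library size alone or RLE factors in place of TMM, no filter, at least 10 counts in every library, a replicate block, each library left out, and limma 3.58.1 on log2(FPKM + 1), on log2(FPKM + 0.1) and with a mean FPKM of at least 1; fold changes on the log2(FPKM + pseudocount) scale understate the change of low genes. The test was checked on simulated counts with the same dispersion for every gene, a simpler case than these data. There edgeR recovered 93.9% of the changed genes, and 6.12% of its calls were false. Recovery was 100% for genes given the larger fold change and 89.2% for those given the smaller. The smaller was a log2 fold change of 1, and recovery below that size was not tested.

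Every measured receptor is named; 1 that was not measured is not reported here by name. Full values are given for called receptors whose mean reached 1 CPM and whose log2 fold change was 1 or more in size; the counts of others and the genes high in 1 library were added after their values were seen. The receptors and lists were chosen with earlier results of these data known. Positions, overlaps and the sequences are from GENCODE M39 and GRCm39, which held all 98 genes.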

Additional observations from a re-analysis of the deposited data

How the results depend on the processing

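Of the 15 called receptors, 13 kept their direction and call under every setting in which they were tested, and no receptor's call reversed. Gpr107 lost its call without control library 1, 2 or 3 or optimized library 2 or 3 (edgeR adjusted p from 0.053 to 0.12), and Gpr180 without control library 1, 2 or 3 or optimized library 3 (0.050 to 0.069) and in the limma fits (limma adjusted p from 0.073 to 0.093). Gpr137b, Gpr146 and Gpr18, not called in the report, were called in some settings. With a mean FPKM of at least 1, 19 receptors could be tested and 8 were called, 2 of them higher, as 2 adhesion receptors and 6 Gpr genes; fewer receptors were tested there. Without the filter Gpr55 was also called (log2 fold change -4.34, edgeR adjusted p = 0.0084).

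The receptors' median log2 fold change lay near 0, and its sign differed between settings. It was -0.0388 by library size alone, -0.0391 on log2(FPKM + 1), -0.0555 on log2(FPKM + 0.1) and -0.0511 with a mean FPKM of at least 1. In the same order, the medians of all genes in these fits were -0.121, -0.087, -0.129 and -0.133. The receptor median was 0.155 with DESeq2 and 0.136 without the filter, where 79 receptors were tested and all genes gave 0.0583 and 0.0407. Leaving out 1 library each gave -0.0108 to 0.118; it was 0.0291 without optimized library 1 and -0.0108 without optimized library 3. Library size alone leaves out the TMM factors, which were 1.003 to 1.07 in the control and 0.898 to 1.026 in the optimized libraries. The median of all genes was -0.12 in that setting, so its receptor values are relative to that shift. Same-numbered libraries correlated at 0.35, -0.02 and 0.21 in their deviations from the group mean, and differently numbered ones at -0.377 to 0.285. With 3 libraries a group, these values cannot decide whether the numbers pair the samples. With the replicate block 16 receptors were called and 4924 of all genes, against 4360. At these depths receptors with under 10 counts cannot be compared.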
